A study of Mus musculus with 20 samples.

Results

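The 38 genes described here code for secreted signalling proteins of 4 families, namely 19 Wnt, 6 Bmp, 3 hedgehog and 10 Fgf ligands, out of 21938 protein-coding genes in the annotation. They were taken by family from a list of names, with earlier results of these data known, and a further 16 Fgf and Bmp ligands were kept as a separate list. For each gene, peaks of H3K27me3, the trimethylated form of lysine 27 of histone H3, were sought within 5 kb of any annotated transcription start site (TSS), and binding sites of KLF4 and JMJD3 within 50 kb.

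Wnt, Bmp, hedgehog and Fgf ligands are the main morphogens of the vertebrate embryo. Cells that secrete them pattern their neighbours, and in fibroblasts, as in most differentiated cells, many of these genes are held silent by Polycomb complexes, which deposit H3K27me3 around CpG-rich start sites. JMJD3, the product of Kdm6b, is a demethylase that removes methyl groups from this residue. KLF4 is a zinc finger transcription factor and, with OCT4, SOX2 and c-MYC, part of the OSKM cocktail that converts fibroblasts into induced pluripotent stem cells.

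The study followed mouse embryonic fibroblasts (MEFs) of early passage through OSKM reprogramming in medium with Vitamin C, and used chromatin immunoprecipitation with sequencing (ChIP-seq). H3K27me3 was profiled in 10 libraries: MEFs without factors, and cells at day 5 and day 10 after OSKM with either a FLAG control vector or JMJD3 overexpression, each in Jmjd3 wild-type (WT) and Jmjd3 knockout (KO) cells. KLF4 was profiled at day 5 of OSKM in WT cells with FLAG or JMJD3, and FLAG-tagged JMJD3 was profiled with an anti-FLAG antibody at day 5 in WT cells that received OSKM or OSlowKM, in which KLF4 was supplied at a low level. The labels gave KO cells the strain C57Bl6J and WT cells C57BL/6J-OG2, a reporter strain, so by the labels genotype and strain cannot be told apart. The study also describes littermate WT and KO MEFs without the reporter, and the sources used here do not say whether the ChIP-seq cells were these. JMJD3 was overexpressed in KO cells too, so these carried exogenous JMJD3 with the endogenous gene knocked out. Each group had 1 library, so no difference between libraries has a replicate check and none was tested. The intervals given are 95% Wilson intervals over genes. They cover counting error only.

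The H3K27me3 lists held between 3045 (day 10 WT JMJD3) and 6954 (MEF WT) peaks, all 1000 bp wide. Read numbers were not used here, and a longer list reaches weaker peaks. The strength of a peak is given as its percentile, the share of peaks of the same list that scored lower, with ties at their middle rank and 100 as the strongest. Peak lists cannot show whether Kdm6b was deleted. An H3K27me3 peak inside Kdm6b was listed in 3 of the 4 JMJD3 libraries and in 0 of the other 6. Of 8 fibroblast marker genes, 0 to 2 had a peak in any library, and of 10 markers of other cell types 2 to 5 did. How far these libraries differed in the cells they held was not tested.

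Most ligand genes carried H3K27me3 in every library, a higher share than of all genes. In WT MEFs, 30 of 38 had a peak within 5 kb (78.9%, interval 63.7 to 88.9%), against 14.6% of all protein-coding genes. In KO MEFs 26 did (68.4%, 52.5 to 80.9%), against 10.3% of all genes. With FLAG at day 5 the number was 32 in WT cells and 34 in KO cells, against 14.7% and 13.7% of all genes. With JMJD3 at day 5 it was 29 in WT and 30 in KO cells, against 11.0% and 13.0%. At day 10 it was 32 in both genotypes with FLAG, against 12.1% (WT) and 12.8% (KO), and with JMJD3 26 in WT and 33 in KO cells, against 8.26% and 11.7%. The share of ligand genes was lowest, at 68.4%, in KO MEFs and in WT cells with JMJD3 at day 10, the libraries with the shortest lists.

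**Figure D1:**
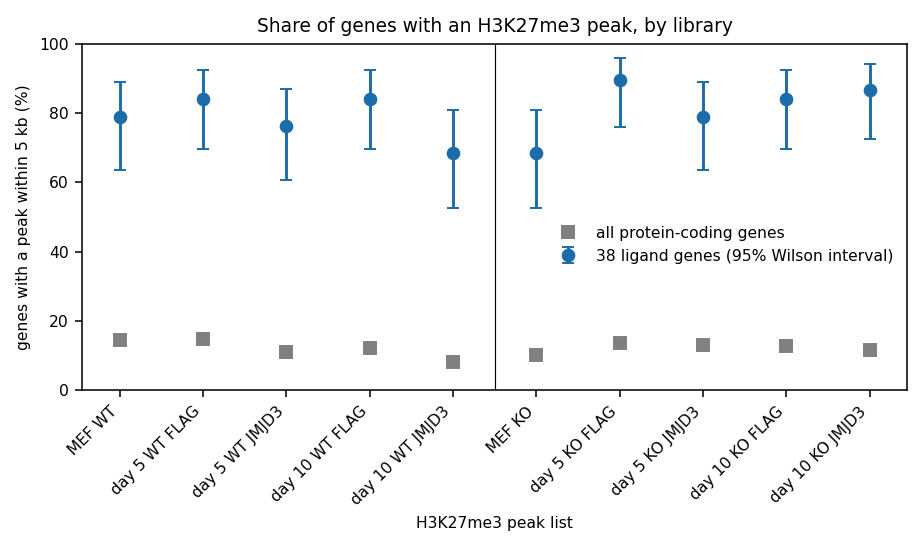
Share of genes marked by H3K27me3 no more than 5 kb from a start site, for all 10 libraries (y axis, percent; x axis, library). Circles with 95% Wilson intervals are the 38 ligand genes and squares all 21938 protein-coding genes; the circles lie between 68.4% and 89.5%, the squares between 8.26% and 14.7%.

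Peaks at ligand genes were also among the stronger ones of their lists. The median percentile of the best peak ran from 75.8 (KO MEFs) to 87.3 (day 5 WT FLAG), whereas over all genes with a peak it ran from 61.0 to 69.6. Of the 304 best peaks of ligand genes over the 10 libraries, 130 covered a TSS (42.8%), against 36.4% for all genes, and the median distance between peak midpoint and TSS was 589 bp. The best peaks were richer in CpG than whole lists. Their median GC content was between 59.2% and 62.5% in the 10 libraries, against 51.6% to 55.2% over whole lists, and their median ratio of observed to expected CpG was 0.591 to 0.673, against 0.345 to 0.486. Whole lists also hold weaker peaks and peaks far from any TSS. The best peaks of other marked genes were not compared in this respect. In the 300 bp from 250 bases before to 50 after the main TSS, 21 of the 38 genes had a CpG ratio above 0.6 (55.3%), against 46.8% of all genes.

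Which ligand genes were marked was largely shared between libraries. A peak was present in all 10 lists for 21 of the 38 genes (55.3%), against 4.68% of all genes, and in at least 1 list for 35 (92.1%), against 22.4%. The 21 were Wnt1, Wnt2b, Wnt3, Wnt3a, Wnt4, Wnt6, Wnt7a, Wnt7b, Wnt9b, Wnt10b, Bmp3, Bmp4, Bmp6, Ihh, Fgf3, Fgf4, Fgf8, Fgf9, Fgf15, Fgf17 and Fgf20. Wnt8a, an early mesoderm ligand, Bmp5 and Fgf18 had no peak within 5 kb in any list. Of these, Wnt8a had its nearest peak between 8445 and 8847 bp away in 4 lists.

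**Figure D2:**
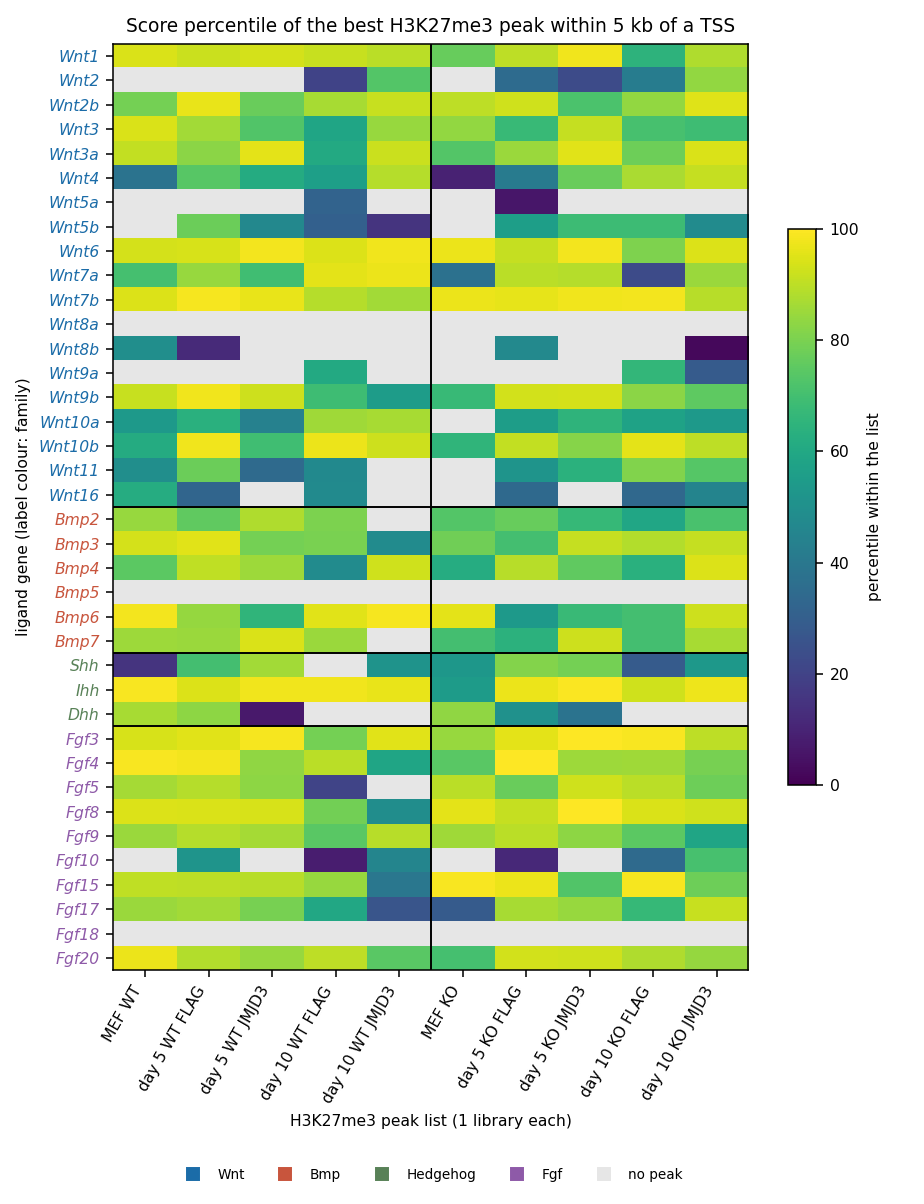
Percentile (colour, 0 to 100 within each list) of the best H3K27me3 peak for each ligand gene (rows, grouped by family) in each library (columns, WT left and KO right). Grey cells have no peak; Wnt6, Wnt7b and Fgf3 are bright across all 10 columns and Wnt8a, Bmp5 and Fgf18 are grey throughout.

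Among the Wnt ligands, which signal through Frizzled receptors, 146 of 190 gene and library combinations had a peak (76.8%), with a median percentile of 79.8. Wnt7b was the most evenly marked, with 2 separate peaks in every library and percentiles of 94.6 in WT MEFs, 98.5 and 96.9 at day 5 (WT FLAG and JMJD3), 88.7 and 86.2 at day 10, 96.9 in KO MEFs, 96.3 and 97.9 at day 5 (KO) and 98.4 and 89.1 at day 10 (KO). Wnt6 lay between 80.6 and 98.3. At the other end stood Wnt5a, a non-canonical ligand that fibroblasts are known to express. It had a peak in 2 libraries only, at percentile 31.9 with FLAG at day 10 in WT cells and at 5.92 with FLAG at day 5 in KO cells. Wnt9a had a peak only at day 10, at 60.9 in WT cells with FLAG, 66.1 in KO cells with FLAG and 28.6 in KO cells with JMJD3. In the MEF and day 5 libraries its nearest peak lay just past the 5 kb limit, from -5769 to -8508 bp. Wnt8b had a peak in 4 libraries and Wnt2 and Wnt16 in 6.

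The Bmp ligands, members of the TGF-beta superfamily, had a peak in 48 of 60 combinations (80.0%), and since Bmp5 had none, a Bmp gene with a peak had it in 9 or 10 libraries. Bmp4, a ventralising signal, ranged from 48.1 (day 10 WT FLAG) to 94.6 (day 10 KO JMJD3) and Bmp6 from 53.9 to 98.4. The percentile of the family never fell below 48.1, whereas every other family held a best peak under percentile 10.

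The hedgehog ligands had a peak in 25 of 30 combinations (83.3%). Ihh, the ligand of growth plate cartilage, was strongly marked in 9 libraries, at 92.6 to 99.2. In KO MEFs it had 4 peaks, the best at 55.0, below the median of 63.5 over all genes with a peak there. Dhh, expressed in testis and peripheral nerve, showed the clearest course with time: its percentile was 86.8 in WT MEFs and 83.5 in KO MEFs, 83.1 and 50.5 with FLAG at day 5, and no peak was listed in any of the 4 day 10 libraries. Shh, the ligand of notochord and limb bud, was at 14.9 in WT MEFs, at 70.0 with FLAG at day 5 in WT cells and without a peak with FLAG at day 10. In KO cells it was at 52.9, 81.4 and 28.6 at the same stages.

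The Fgf ligands, which act on receptor tyrosine kinases, had a peak in 85 of 100 combinations (85.0%) and the highest median percentile, 86.5. Fgf3 lay between 79.0 and 99.7. Fgf8, an organiser signal of brain and limb, was tied at the top of its list at day 5 in KO cells with JMJD3. Its peak had the highest score, 200, as did that of Fgf3 and further peaks of that list, which put both genes at percentile 99.7. Fgf4, an Fgf gene active in pluripotent cells, was at 99.1 in WT MEFs and 98.2, 83.6, 89.7 and 58.9 in the WT libraries at day 5 FLAG, day 5 JMJD3, day 10 FLAG and day 10 JMJD3. In KO cells its percentiles at the same stages were 74.6, 99.7, 85.4, 85.8 and 79.5.

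The comparison of JMJD3 with FLAG asked whether ligand genes with a peak under FLAG were still listed with exogenous demethylase. The study reports that exogenous JMJD3 lowered H3K27me3 signal globally early in reprogramming, and less or not at all later. A gene that keeps a peak can carry less of the mark, and a percentile gives only a place within a list. Whether the level of the mark fell at ligand genes was therefore not tested. Few ligand genes dropped out of the whole lists. At day 5, 3 of the 32 WT genes with a peak under FLAG had none with JMJD3 (9.38%, interval 3.24 to 24.2%), against 31.8% of all genes, and 4 of 34 KO genes did (11.8%, 4.67 to 26.6%), against 20.5%. Wnt8b, Wnt16 and Fgf10 were absent with JMJD3 in both genotypes, and Wnt5a in KO cells. For Wnt8b in WT cells this rests on the 5 kb limit, since a peak lay 5697 bp away with JMJD3, and at 10 kb the 3 WT genes were Wnt8a, Wnt16 and Fgf10. No ligand gene had a peak at day 5 with JMJD3 alone, against 1.12% (WT) and 2.48% (KO) of genes without one under FLAG. At day 10, 7 of 32 WT genes had no peak with JMJD3 (21.9%, 11.0 to 38.8%), against 41.3% of all genes. They were Wnt5a, Wnt9a, Wnt11, Wnt16, Bmp2, Bmp7 and Fgf5, and Shh appeared only with JMJD3 (1 of 6 unmarked genes), against 1.30% for all genes. In KO cells at day 10, 0 of 32 dropped out (upper limit of the interval 10.7%), against 25.1%, and Wnt8b appeared (1 of 6), against 2.42%.

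**Figure D3:**
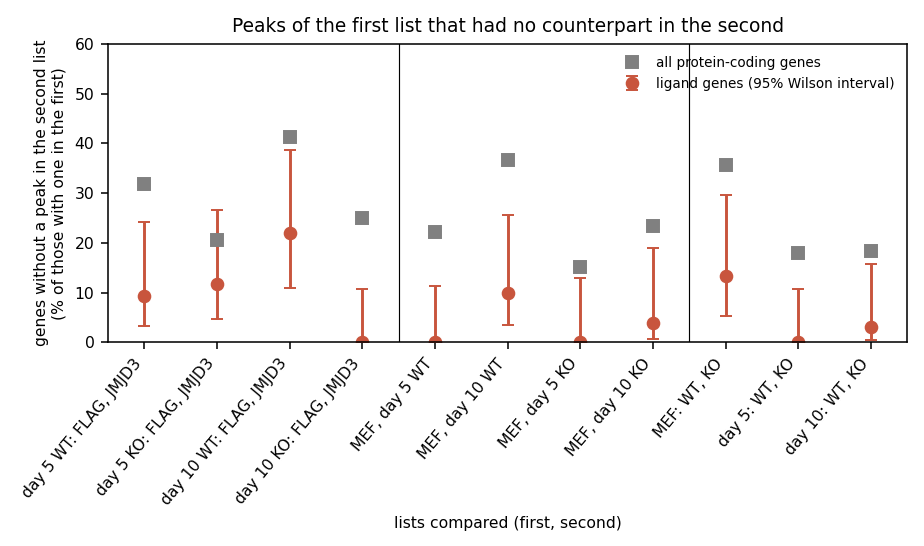
Share of genes with a peak in a first library that had none in a second (y axis, percent), for ligand genes (circles, 95% Wilson intervals) and all genes (squares), for FLAG against JMJD3 (left), MEFs against later days (middle) and WT against KO (right). In these whole lists the circle lies below the square in all 11 comparisons, which share libraries, and the interval reaches the square only for day 5 KO. The intervals cover counting over genes, not libraries, and the squares are not matched for peak strength. At a score of at least 20 the ligand share is above that of all genes from MEFs to day 5 KO (3 of 11, against 18.8%). The same holds for day 10 FLAG WT against KO (5 of 13, against 33.0%).

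At day 5 the genes that dropped out of the whole lists held weaker peaks. Under FLAG at day 5 in WT cells, Wnt8b was at percentile 12.1, Wnt16 at 32.6 and Fgf10, a limb and lung bud ligand, at 51.7, and in KO cells Wnt5a was at 5.92, Fgf10 at 11.6, Wnt16 at 34.2 and Wnt8b at 47.2. Genes were then set against others of like peak strength, by quartiles of the FLAG score from the lowest up. At day 5 in WT cells, 1 of 1, 1 of 1, 1 of 4 and 0 of 26 ligand genes dropped out, against 77.1%, 59.0%, 30.6% and 5.70% of all genes. In KO cells it was 2 of 2, 2 of 4, 0 of 8 and 0 of 20, against 58.7%, 38.7%, 14.8% and 2.13%. At day 10 in WT cells it was 1 of 3, 3 of 5, 1 of 7 and 2 of 17, against 72.6%, 64.2%, 43.1% and 17.0%, and in KO cells 0 of 1, 0 of 4, 0 of 11 and 0 of 16, against 59.9%, 44.7%, 22.2% and 5.19%. At day 5 most ligand genes lay in the top quartile, where few genes of any kind dropped out, and the lower quartiles held too few of them to compare. At day 10 in WT cells stronger peaks were among those absent: Bmp7 was at 84.9 and Bmp2, an osteogenic ligand, at 80.4 with FLAG, Wnt9a was at 60.9, Wnt16 at 48.0, Wnt11 at 47.3, Wnt5a at 31.9 and Fgf5 at 20.5.

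Of these 7, Bmp2, Bmp7, Fgf5 and Wnt11 had a peak in each of the other 3 JMJD3 libraries, Wnt9a and Wnt16 in 1 (day 10 KO) and Wnt5a in 0. Bmp7 stood at 94.5 with JMJD3 at day 5 in WT cells and at 92.6 and 87.1 in KO cells at day 5 and day 10. Bmp2 stood at 87.9, 67.1 and 71.3 in the same libraries, and Fgf5 at 82.9, 92.9 and 77.9. Wnt11 stood at 34.7, 63.7 and 73.7. The day 10 WT JMJD3 list was the shortest, with 3045 peaks against 5131 with FLAG. When every list was cut to its strongest 3045 peaks, 27 ligand genes had a peak with FLAG and 26 with JMJD3 at day 10 in WT cells, against 9.03% and 8.26% of all genes. In that setting 5 of 27 dropped out, Wnt9a, Wnt11, Wnt16, Bmp2 and Bmp7, against 31.2% of all genes, and 4 appeared, Wnt2, Wnt5b, Shh and Fgf10, against 2.26%. At day 5 the same step gave 29 and 27 in WT cells, against 9.75% and 8.41%, and 29 and 28 in KO cells, against 9.74% and 8.92%. The genes that dropped out were then Wnt11 and Dhh in WT cells, against 25.7% of all genes, and Wnt8b and Dhh in KO cells, against 22.3%. At a score of at least 20, WT cells at day 5 had 28 ligand genes with FLAG and 21 with JMJD3, against 7.76% and 4.94% of all genes. The 7 that dropped out, against 42.7% of all genes, were Wnt4, Wnt5b, Wnt7a, Wnt10b, Wnt11, Bmp6 and Dhh. Their FLAG percentiles ran from 74.2 (Wnt4) to 97.8 (Wnt10b), and the minimum itself leaves weaker peaks out. All 7 kept a lower peak in the whole JMJD3 list. KO cells at day 5 had 21 and 27, against 6.15% and 7.37%. WT cells at day 10 had 13 and 14, against 3.70% and 1.66%, and KO cells 15 and 21, against 4.12% and 4.37%. The counts of day 5 KO and day 10 WT then went in the opposite direction to the whole lists.

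**Figure D4:**
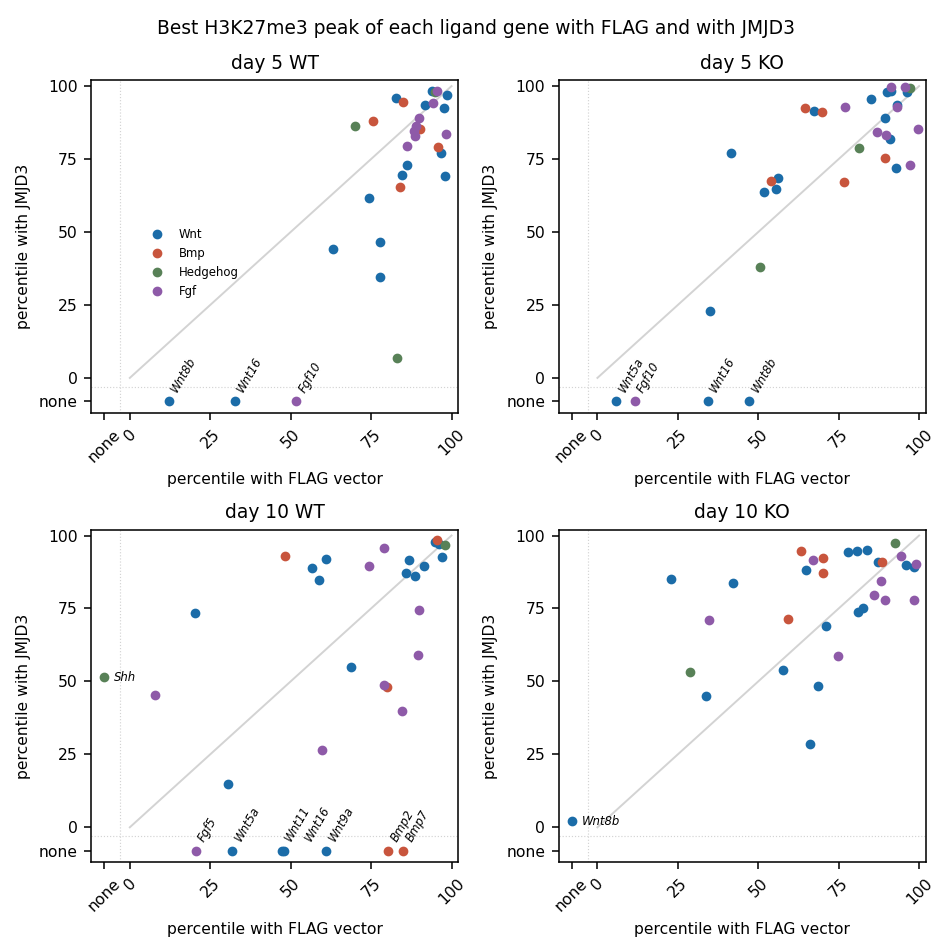
Percentile of the best H3K27me3 peak of each ligand gene with FLAG (x axis) and with JMJD3 (y axis) in the 4 pairs of libraries, coloured by family; genes with no peak in a library lie on the strip marked none and are named. At day 5 the named genes lie to the left, at FLAG percentiles up to 51.7, whereas at day 10 in WT cells Bmp2 and Bmp7 lie at 80.4 and 84.9.

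Ligand genes with a peak in both libraries were compared by their place in each list. At day 5 in WT cells 21 of 29 had a lower percentile with JMJD3, with a median difference of -5.30 points, which was also -5.30 over all genes. In KO cells 13 of 30 were lower, with a median difference of 1.90 points against 1.81. The largest step at day 5 in WT cells was that of Dhh, from 83.1 with FLAG to 6.90 with JMJD3, and in KO cells Dhh went from 50.5 to 38.03. Wnt11 went from 77.6 to 34.7 in WT cells, and in KO cells from 51.8 to 63.7. At day 10 the median difference was 0.934 points in WT cells (25 genes) and 3.13 in KO cells (32 genes), against -6.66 and -1.36 over all genes. A percentile depends on how far down a list reaches, so places from the top were compared too. At day 5 the median ligand gene lay 145 places further from the top with JMJD3 in WT cells, against 32 over all genes, and in KO cells the median change was -94 places, nearer the top, against 49. At day 10 it was -196 in WT and -212.5 in KO cells, against -107 and 0.

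With time in reprogramming, more ligand genes entered the whole lists than left them. From MEFs to day 5 with FLAG, 0 of 30 WT genes dropped out (upper limit 11.4%), against 22.2% of all genes, and Wnt5b and Fgf10 appeared, 2 of 8 unmarked genes, against 3.93%. To day 10, Wnt8b, Shh and Dhh dropped out (3 of 30, 10.0%), against 36.6%, and Wnt2, Wnt5a, Wnt5b, Wnt9a and Fgf10 appeared (5 of 8), against 3.35%. At 10 kb 4 appeared, without Wnt9a, which had a peak at -6589 bp in WT MEFs. This turned at a score of at least 20, where 23 ligand genes had a peak in WT MEFs and 13 at day 10, with 12 dropping out and 2 appearing, against 60.1% and 0.865% of all genes. Both comparisons share the MEF library, and the FLAG libraries also served in the comparison with JMJD3. In KO cells, 0 of 26 dropped out by day 5, against 15.2%, and 8 of 12 unmarked genes appeared, against 5.51%. At a score of at least 20, Wnt3, Bmp6 and Dhh dropped out by day 5. These were 3 of 11, a larger share than the 18.8% of all genes, and 13 ligand genes appeared, against 3.84%. By day 10 only Dhh dropped out of the whole lists (1 of 26, 3.85%), against 23.5%, and 7 of 12 appeared, against 5.50%. At 10 kb 2 of 29 dropped out by day 10, against 25.4%, and at equal length 3 of 25, against 29.8%. With the score minimum of 20 it was 4 of 11, against 40.9%. The KO MEF list was shorter than the day 5 list, 4113 peaks against 5643. At equal length 25 KO genes had a peak in MEFs and 29 at day 5, with 0 dropping out and 4 appearing, against 22.3% and 3.21% of all genes. Wnt5b had no peak in either MEF library and then percentiles of 77.7 (day 5) and 30.5 (day 10) in WT cells with FLAG, and of 56.0 and 68.7 in KO cells. At equal length it still appeared in 3 of the 4 comparisons, the exception being day 10 WT. Fgf10 had none in MEFs and then weaker peaks, at 51.7 and 7.86 in WT cells and 11.6 and 34.7 in KO cells, and it appeared in 0 of the 4 at equal length or at a score of at least 20.

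The 8 KO genes that appeared by day 5 were Wnt2, Wnt5a, Wnt5b, Wnt8b, Wnt10a, Wnt11, Wnt16 and Fgf10, and 4 of them already had a peak in WT MEFs. WT and KO cells differed at 4 ligand genes before the factors were added and at 2 on each later day with FLAG in the whole lists. In MEFs, Wnt8b, Wnt10a, Wnt11 and Wnt16 had a peak in WT and none in KO cells (4 of 30, 13.3%), against 35.6% of all genes, and no ligand gene had one in KO cells alone, against 1.01%. The KO MEF list held 4113 peaks against 6954. With each list cut to 3045 peaks, 25 ligand genes had a peak in each MEF library (65.8%), 24 of them in both, against 9.24% (WT) and 8.76% (KO) of all genes. At day 5 with FLAG, 0 of 32 were in WT alone, against 17.9%, and Wnt2 and Wnt5a were in KO alone (2 of 6 unmarked in WT), against 1.83%. At day 10, Wnt5a was in WT alone (1 of 32, 3.12%), against 18.4%, and Shh in KO alone (1 of 6), against 3.29%. With JMJD3 they differed at 1 gene at day 5, Wnt2, and at 7 at day 10, Wnt8b, Wnt9a, Wnt11, Wnt16, Bmp2, Bmp7 and Fgf5. Each of these had a peak in KO cells alone, against 3.39% (day 5) and 4.82% (day 10) of all genes, and 0 had one in WT cells alone, against 9.16% and 12.0%. At a score of at least 20 more genes differed. In MEFs 12 of 23 WT genes had no peak in KO cells, against 60.7% of all genes, at day 5 with FLAG 7 of 28, against 29.8%, and at day 10 with FLAG 5 of 13, against 33.0%. In KO cells alone there were 0, 0 and 7, against 0.143%, 0.761% and 1.71% of all genes without one in WT cells. With JMJD3 at that score, 21 (WT) and 27 (KO) ligand genes had a peak at day 5, against 4.94% and 7.37% of all genes. At day 10 it was 14 and 21, against 1.66% and 4.37%, and Wnt10a and Fgf9 had one in WT cells alone.

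KLF4 peaks lay within 50 kb of a share of ligand genes near that of all genes, and close to the start site of a smaller share. With FLAG, 19 of 38 ligand genes had a KLF4 peak within 50 kb (50.0%, 34.8 to 65.2%), against 53.9% of all genes. With JMJD3, 22 did (57.9%, 42.2 to 72.1%), against 62.2%. Within 10 kb the numbers were 8 (21.1%) and 10 (26.3%), against 32.1% and 41.6%. Within 5 kb they were 4 (10.5%, 4.17 to 24.1%) and 8 (21.1%, 11.1 to 36.3%), against 28.0% and 37.1%. Among genes with an H3K27me3 peak at day 5 (WT FLAG), 3 of 32 ligand genes had a KLF4 peak within 5 kb with FLAG (9.38%), against 18.2% of all such genes, and 7 within 10 kb (21.9%), against 23.7%. With JMJD3 6 had one within 5 kb (18.8%), against 29.3%, and 8 of 32 within 10 kb, against 35.3%. All 19 genes with a KLF4 peak within 50 kb under FLAG had one with JMJD3, against 96.3% of all such genes, and Wnt2b, Wnt3a and Wnt9a, 3 of the other 19, had one with JMJD3 alone, against 22.4%. The KLF4 list was longer with JMJD3, 14391 peaks against 10655.

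JMJD3 positions with OSKM lay within 50 kb of 20 ligand genes (52.6%, 37.3 to 67.5%), against 48.9% of all genes, within 10 kb of 6 (15.8%), against 24.6%, and within 5 kb of 5 (13.2%), against 21.0%. Among genes with an H3K27me3 peak the shares lay closer, at 3 of 32 within 5 kb (9.38%), against 11.0%, and 4 within 10 kb (12.5%), against 14.4%. With low KLF4 the list shrank from 14067 to 2284 positions. It then reached 6 ligand genes within 50 kb (15.8%, 7.44 to 30.4%), against 11.2% of all genes, 1 within 10 kb, against 4.36%, and 0 within 5 kb, against 3.66%. The 6 were Wnt5b, Wnt16, Bmp6, Dhh, Fgf8 and Fgf18, each of which also had a position with OSKM, against 91.6% of all such genes. The other 14 of the 20 had one with OSKM only, 14 of 32 genes without one at low KLF4, against 43.5%.

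Of the 38 genes, 16 had both KLF4 and JMJD3 within 50 kb (42.1%), against 43.2% of all genes, and 12 had neither (31.6%), against 29.1%. KLF4 alone was found at 6 (Wnt3a, Wnt6, Wnt7a, Wnt7b, Wnt9a and Wnt11; 15.8%), against 21.0%, and JMJD3 alone at 4 (Wnt5a, Wnt16, Bmp4 and Fgf20; 10.5%), against 6.67%. These shares were near those of all genes. By family, Fgf ligands had KLF4 with FLAG at 7 of 10 genes and JMJD3 at 8 of 10, Bmp ligands had KLF4 at 1 of 6 (Bmp6) and JMJD3 at 2 of 6, and Shh and Ihh had neither. Differences between families were not tested, and neighbouring members share sites, so these genes are not independent loci: Wnt1 and Wnt10b, 11707 bp apart on chromosome 15, had 3 KLF4 peaks with FLAG in common, and Fgf3, Fgf4 and Fgf15 on chromosome 7 shared 1 or more sites in each pair. The 40 gene and peak pairs of the KLF4 FLAG list came from 33 peaks.

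**Figure D5:**
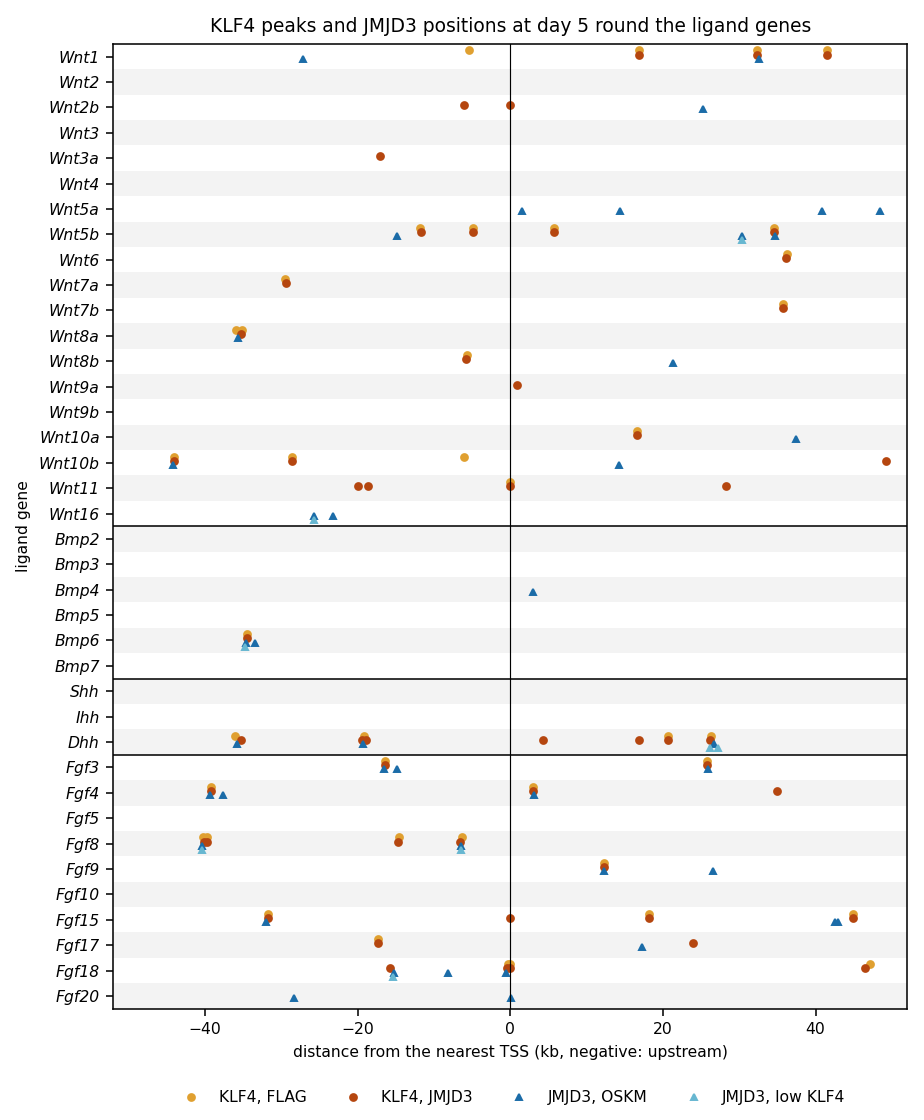
Distance (x axis, kb, negative upstream) of each KLF4 peak (circles) and JMJD3 position (triangles) from the nearest TSS of each ligand gene (rows) at day 5 in WT cells. Of the 38 rows 12 are empty, among them 4 of the 6 Bmp genes with Shh and Ihh; few symbols lie at the start site itself.

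A JMJD3 position (OSKM) lay within 400 bp of a KLF4 peak midpoint (JMJD3) near Wnt1, Wnt5b, Wnt8a, Wnt10b, Bmp6, Dhh, Fgf3, Fgf4, Fgf8, Fgf9, Fgf15 and Fgf18. These were 12 of 38 (31.6%), near the 28.4% of all genes. The closest was 20 bp apart, at -515 bp from a TSS of Fgf18 (negative is upstream), a gene with no H3K27me3 peak in any library. Near Fgf4 they were 82 bp apart, 3107 bp inside the gene, and near Fgf8 246 bp apart, at -6407 bp. Of the 36 H3K27me3 peaks at ligand genes in day 5 WT FLAG cells, 1 overlapped a KLF4 peak with FLAG (Wnt11), 3 overlapped one with JMJD3 (Wnt2b, Wnt11 and Fgf15) and 0 overlapped a JMJD3 position. The shares of 2.78%, 8.33% and 0% stand against 3.31%, 6.78% and 0.928% of the 3449 such peaks within 5 kb of any gene, near the background. Of the 30 peaks at ligand genes with JMJD3 at day 5 in WT cells, 1 overlapped a KLF4 peak with FLAG (3.33%), 2 one with JMJD3 (6.67%) and 0 a JMJD3 position, against 1.47%, 3.25% and 0.454%. Dropping out with JMJD3 was seen at genes with and without a site: 2 of 22 marked WT genes with KLF4 or JMJD3 within 50 kb and 1 of 10 with neither, against 36.0% and 20.3% of all such genes. In KO cells it was 3 of 23 and 1 of 11, against 23.6% and 11.9%. KLF4 and JMJD3 were profiled in WT cells only.

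Sequences at sites close to ligand start sites are given to show what KLF4 and JMJD3 sat on. Only the nearest KLF4 or JMJD3 site of a gene was taken, for the 7 genes with the nearest sites outside untranslated regions. The JMJD3 position at -515 bp of Fgf18 is therefore not shown, since a KLF4 peak of that gene lay nearer. Windows of 200 bp around the midpoint were read from GRCm38.p6, the build of the files, in the direction of the gene and cut to the stretch outside untranslated regions. The site at Wnt2b lay in such a region and is not shown. Capitals mark a KLF-type motif, GGGNGNGGC on either strand, which can overlap other GC-rich motifs. Also searched were the AP-1 motif TGANTCA and the octamer motif ATGCAAAT, and neither was found in these 7 windows.

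The first 4 windows are under KLF4 peaks, that of Fgf18 from the FLAG list and the others from the JMJD3 list: Wnt11 (chr7:98834946-98835111, plus strand, 185 to 20 bases upstream of a TSS, outside annotated genes), Fgf15 (chr7:144896363-144896530, plus strand, just upstream of the TSS, in an exon of the non-coding Gm26793), Fgf18 (chr11:33146801-33147000, minus strand, upstream of its internal TSS, in an intron) and Wnt9a (chr11:59307854-59308053, plus strand, intron). With FLAG, the nearest KLF4 peak lay at -18 bp for Wnt11 and at 18186 bp for Fgf15, and Wnt9a had none within 50 kb.
Wnt11: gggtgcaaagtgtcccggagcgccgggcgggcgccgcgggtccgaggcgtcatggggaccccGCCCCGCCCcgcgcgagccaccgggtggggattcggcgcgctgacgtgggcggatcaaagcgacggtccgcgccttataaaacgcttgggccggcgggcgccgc
Fgf15: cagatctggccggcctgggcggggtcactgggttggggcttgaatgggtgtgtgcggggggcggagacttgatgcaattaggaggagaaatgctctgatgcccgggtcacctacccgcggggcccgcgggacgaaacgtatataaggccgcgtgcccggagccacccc
Fgf18: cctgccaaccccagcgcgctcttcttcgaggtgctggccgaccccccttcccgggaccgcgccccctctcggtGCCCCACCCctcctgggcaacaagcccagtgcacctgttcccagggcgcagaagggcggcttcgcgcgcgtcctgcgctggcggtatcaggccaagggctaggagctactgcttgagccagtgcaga
Wnt9a: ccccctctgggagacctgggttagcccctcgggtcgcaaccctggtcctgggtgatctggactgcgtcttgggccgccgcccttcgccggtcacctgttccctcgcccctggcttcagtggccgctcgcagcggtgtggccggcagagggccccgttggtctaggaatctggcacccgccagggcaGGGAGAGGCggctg

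Of these, Wnt11, Fgf18 and Wnt9a hold 1 KLF-type match each and Fgf15 none. The remaining 3 windows are centred on JMJD3 positions: Fgf20 (chr8:40308138-40308253, minus strand, in a coding exon of both Fgf20 and Micu3), Wnt5a (chr14:28512873-28513072, plus strand, intron) and Bmp4 (chr14:46387503-46387702, minus strand, in an exon of the non-coding Gm15222).
Fgf20: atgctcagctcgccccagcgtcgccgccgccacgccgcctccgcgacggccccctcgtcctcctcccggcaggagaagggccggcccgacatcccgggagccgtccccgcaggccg
Wnt5a: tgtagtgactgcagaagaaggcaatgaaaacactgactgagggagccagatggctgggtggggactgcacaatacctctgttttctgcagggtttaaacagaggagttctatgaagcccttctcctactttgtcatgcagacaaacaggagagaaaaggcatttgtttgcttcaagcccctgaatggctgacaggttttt
Bmp4: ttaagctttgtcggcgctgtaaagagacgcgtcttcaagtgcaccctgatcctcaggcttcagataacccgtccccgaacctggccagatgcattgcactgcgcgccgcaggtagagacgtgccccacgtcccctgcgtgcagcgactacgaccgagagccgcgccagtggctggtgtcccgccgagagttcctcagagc

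None of the 3 holds the KLF-type match. The Fgf20 window lies at the more distant of 2 annotated TSSs, 21378 bp from the other one, near which its H3K27me3 peaks lay. The Wnt5a window has no CpG at all, whereas the others hold 14 to 29. Over the 33 KLF4 peaks (FLAG) near ligand genes, 18 windows held the KLF-type match (54.5%), against 45.8% of all windows of that list, and with JMJD3 26 of 44 did (59.1%), against 44.7%. For JMJD3 with OSKM it was 11 of 36 (30.6%), against 15.5%, and the median GC content of these windows was 50.5%, against 44.5% over the list. The match was found in the 300 bp promoters of 17 ligand genes (44.7%), 11 of 19 Wnt and 1 of 10 Fgf genes, against 31.7% of all genes.

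The genes that receive and modulate these signals were marked at a share between that of the ligands and that of all genes. Of 90 receptors, inhibitors, transducers and targets, 32 had an H3K27me3 peak at day 5 in WT cells with FLAG (35.6%) and 24 with JMJD3 (26.7%), against 14.7% and 11.0% of all genes, and 8 of the 32 dropped out, against 31.8%. In KO cells at day 5 it was 27 (30.0%) and 23 (25.6%), against 13.7% and 13.0%, with 5 of the 27 dropping out, against 20.5%. Among 15 Wnt receptors, 7 had a peak with FLAG at day 5 in WT cells and 3 with JMJD3. The 4 absent were the Frizzled receptors Fzd1 (percentile 29.7) and Fzd4 (8.85) and the co-receptors Ror1 (27.5) and Ror2 (1.67), and only Fzd10 had a peak in all 10 libraries. Secreted and membrane inhibitors of Wnt were marked most among these lists, 11 of 14 with FLAG and 10 with JMJD3, with Dkk1, Kremen2, Notum and Sfrp5 in all libraries and Dkk2 (37.3) absent with JMJD3. Wnt transducers and targets had 4 of 16 in both, with the feedback gene Axin2 in all libraries.

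The all-gene shares for the day 5 WT counts that follow are 14.7% with FLAG, 11.0% with JMJD3 and 31.8% for dropping out. Of 14 Bmp receptors and transducers 1 (Smad5, 31.3) had a peak with FLAG and 0 with JMJD3. Of 9 Bmp inhibitors 3 had a peak with FLAG and 2 with JMJD3, and the antagonist Chrd (47.6) was absent with JMJD3 in both genotypes. Of 11 hedgehog receptors, transducers and targets 3 had a peak in either library at day 5 in WT cells, and at day 10 all 3 of those with FLAG had none with JMJD3, against 41.3% of all genes. In KO cells at day 10, 4 had one with FLAG and 3 with JMJD3, against 12.8% and 11.7% of all genes. Of these lists 2 genes dropped out, against 25.1%, and 1 appeared, against 2.42%. Of 11 Fgf receptors and inhibitors 3 had a peak with FLAG and 2 with JMJD3, with the co-receptor Klb (9.94) absent and Fgfr4 in all libraries. Of the 16 further Fgf and Bmp ligands 9 had a peak with FLAG and 6 with JMJD3, with Fgf16 (64.2), Fgf6 (38.1) and Fgf2 (22.9) absent, 3 of 9 and so near the share of all genes, and Bmp8a, Fgf11 and Fgf14 in all libraries. At the markers, Thy1 (61.3), of fibroblasts, and Cdh1 (82.2), of epithelia, were marked under FLAG but not under JMJD3 at day 5 in WT cells, and neither dropped out in KO cells at day 5. Of the 10 markers of other cell types 4 had a peak in each of the day 5 WT libraries, with 1 dropping out and 1 appearing, and Myod1 and Sox10 had one in all 10.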

How the data were processed

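ChIP-seq peak lists of 14 of 20 samples were used, with groups from the labels and 1 library per group. 4 input and 2 H3K27ac samples were not analysed here. The authors aligned reads to mm10 with bowtie2 (version 2.2.0 in the submitters' processing notes) and called peaks with DFilter (H3K27me3) or MACS2 (KLF4, JMJD3). By the study's methods, mouse H3K27me3 reads were scaled by the mapped reads of a Drosophila spike-in, and whether this entered the peak calls is not given in the sources used here. The deposited H3K27me3 lists give a score of unstated scale (lowest 6.56, highest 200). It was used to rank peaks within a list and, as an alternative, for a minimum of 20 applied to every list alike. Whether scores compare between lists is not known, so counts at that minimum also depend on the scale of each list. The KLF4 lists give intervals and the JMJD3 lists positions of 1 bp, both without score.

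Peaks were assigned to TSSs of GENCODE M21 basic protein-coding transcripts with Python 3.11.15, numpy 2.4.6, scipy 1.17.1 and pysam 0.24.0. Distance was 0 where a peak covered a TSS. All 200 simulated intervals were recovered, and gene counts equalled those of bedtools 2.31.1 in 14 of 14 lists. All 38 ligands could be named. Of every other list, genes that dropped out at day 5 in WT cells and genes marked in all 10 lists were named, at most 6. Members and lists were chosen with earlier results of these data known. Alternatives were distances of 2 and 10 kb (binding 10 and 100 kb), 1 TSS per gene, lists of equal length, a score minimum of 20 and the wider 50% of KLF4 peaks. No test was run.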

Additional observations from a re-analysis of the deposited data

Results flagged for a closer look

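The number of ligand genes with a peak, JMJD3 minus FLAG, went in opposite directions in the 2 genotypes at day 10, at -6 in WT cells and 1 in KO cells. It also went in opposite directions within KO cells, at -4 at day 5 and 1 at day 10. Over all genes the count fell from 2660 to 1813 (day 10 WT), from 2806 to 2566 (day 10 KO) and from 2996 to 2852 (day 5 KO). With lists of equal length the ligand count at day 10 went from 27 to 26 in WT cells and from 27 to 31 in KO cells, while the share of all genes went from 9.03% to 8.26% and from 9.33% to 9.09%. At a score of at least 20 it went from 13 to 14 and from 15 to 21, upward in both, while the share of all genes went from 3.70% to 1.66% and from 4.12% to 4.37%. At day 5 in KO cells it went from 29 to 28 at equal length (all genes 9.74% to 8.92%) and from 21 to 27 at that score (6.15% to 7.37%). With 1 library per group, these differences were not tested.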

How the results depend on the processing

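Of 164 recomputed values, 131 stayed within 1.5 times the reported count or within the interval of the median, and 33 moved further. All 42 values at 2 kb and all 26 with 1 TSS per gene stayed. With a score minimum of 20, ligand genes with a peak numbered 13 (day 10 WT FLAG), 14 (day 10 WT JMJD3), 11 (KO MEFs), 21 (day 5 KO FLAG), 15 (day 10 KO FLAG) and 21 (day 10 KO JMJD3). The shares of all genes, in the same order, were 3.70%, 1.66%, 2.99%, 6.15%, 4.12% and 4.37%. In that setting 7, 0, 4 and 2 dropped out with JMJD3 (day 5 WT, day 5 KO, day 10 WT, day 10 KO), against 42.7%, 17.5%, 66.2% and 32.1% of all genes. With JMJD3 6, 5 and 8 appeared (day 5 KO, day 10 WT, day 10 KO), against 2.44%, 0.431% and 1.64%. From MEFs 12 of 23 (day 10 WT), 3 of 11 (day 5 KO) and 4 of 11 (day 10 KO) dropped out, against 60.1%, 18.8% and 40.9%. With lists of equal length, 2 (day 5 KO) and 1 (day 10 KO) dropped out with JMJD3, against 22.3% and 23.9%, 1, 4 and 5 appeared (day 5 KO, day 10 WT, day 10 KO), and from MEFs 1 (day 5 WT) and 3 (day 10 KO) dropped out. At 10 kb, 1 appeared with JMJD3 at day 5 in KO cells and 0 at day 10 in WT cells, against 3.32% and 1.49%. From MEFs to day 5 and day 10 in KO cells 1 and 2 dropped out, against 17.5% and 25.4%. For binding, 10 kb gave 8 and 10 genes for KLF4 (FLAG, JMJD3), against 32.1% and 41.6% of all genes. It gave 6 and 1 for JMJD3 (OSKM, low KLF4), against 24.6% and 4.36%. At 100 kb it was 29 for KLF4 with FLAG and 10 for JMJD3 with low KLF4, for which no all-gene share is given here. The score minimum removes more of a list whose scores are low. The cause of the other moves was not tested. No paired analysis was possible because the result comes from no test and each group has 1 library. Read numbers were not used here, and a gene without a peak may carry the mark below the caller's threshold.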
